A study of Mus musculus with 2 samples.

Results

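The genes followed were S100a8, S100a9, Retnlg, Cxcr2, Il1r2, Hdc, Acod1, G0s2, Stfa2l1 and Rdh12, which are 10 of the 33696 genes counted in live lung cells. They were listed by symbol, as genes of mature neutrophils whose UMIs did not move together between a library labelled GFI1 KO and one labelled GFI1 WT, so the differences between the labels chose them and are given here as a description. Both libraries came from adult mice on the C57BL6/J background, 1 from a germline knockout of the transcriptional repressor GFI1 and 1 from GFI1 WT. Dissociated lungs were sorted for live cells and run on the 10x Genomics 3′ platform with 18 antibody tags. The study states 2 samples per genotype and 1 per genotype was analysed here, so genotype, mouse and library cannot be told apart and no test between groups was possible. Where a pair of values is given without its libraries, the GFI1 KO library comes first. Intervals are 95% and cover counting error only.

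The library labelled GFI1 KO (the GFI1 KO library) kept 10495 cells with a median of 11076 UMIs (unique molecular identifiers, 1 per captured RNA molecule), and that labelled GFI1 WT kept 19342 cells with a median of 6217. Gfi1 itself had 340 and 470 UMIs, 3.60 and 3.47 CPM (the gene's UMIs in a class over all UMIs of kept genes there, scaled to 1000000). A 3′ tag can lie outside the deleted part of a gene, and where it lies here is not given in the sources used, so these counts check neither label. Of the cell barcodes, 74 occurred in both libraries, none of them in a neutrophil-like cell of the library labelled GFI1 KO. Leaving them out left all 10 genes at least 4-fold lower in the first comparison given here.

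Neutrophils are short-lived phagocytes that mature in the bone marrow. Genes of the primary granules come on first, those of the secondary and tertiary granules later, and receptors and effectors of the circulating cell last. GFI1 is known to be needed for this maturation. S100a8 and S100a9 encode the subunits of calprotectin, the most abundant protein of the neutrophil cytosol, and are also made by classical monocytes. Cxcr2 is the receptor that draws neutrophils to CXCL1 and CXCL2, Il1r2 a decoy receptor for interleukin-1, Hdc the enzyme that makes histamine, Acod1 the enzyme that makes itaconate, and G0s2 an inhibitor of the triglyceride lipase ATGL. Retnlg encodes a secreted resistin-like protein, Stfa2l1 a stefin-type inhibitor of cysteine proteases, and Rdh12 a retinol dehydrogenase.

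The bases upstream of the start site are shown for the calprotectin pair, which was high in monocyte-like cells in the GFI1 KO library, and for Retnlg and Stfa2l1, which were at a few CPM there. Each run is 250 bases from RefSeq (GRCm38.p6, not the GRCm39 of the deposited counts), 5′ to 3′ on the gene's strand. Capitals mark the letters AAATC (the core that GFI1 binds), TTGCNNAA (C/EBP factors) and GAGGAA (PU.1) on either strand.
S100a8, chr3:90668821-90669070, plus strand: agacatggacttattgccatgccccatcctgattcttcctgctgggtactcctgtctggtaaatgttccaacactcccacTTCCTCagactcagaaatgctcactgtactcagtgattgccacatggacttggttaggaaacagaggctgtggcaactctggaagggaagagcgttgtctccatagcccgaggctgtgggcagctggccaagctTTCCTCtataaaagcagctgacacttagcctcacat
S100a9, chr3:90695722-90695971, minus strand: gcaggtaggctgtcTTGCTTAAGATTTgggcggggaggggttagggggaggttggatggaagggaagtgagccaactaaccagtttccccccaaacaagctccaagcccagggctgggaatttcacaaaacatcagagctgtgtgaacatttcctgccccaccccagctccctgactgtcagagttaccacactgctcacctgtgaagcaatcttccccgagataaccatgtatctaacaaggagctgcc
Retnlg, chr16:48872358-48872607, plus strand: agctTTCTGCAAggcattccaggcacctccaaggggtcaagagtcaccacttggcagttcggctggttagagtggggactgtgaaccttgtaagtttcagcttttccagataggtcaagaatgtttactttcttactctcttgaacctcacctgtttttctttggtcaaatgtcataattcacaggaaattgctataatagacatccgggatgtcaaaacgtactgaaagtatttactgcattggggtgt
Stfa2l1, chr16:36156561-36156810, plus strand: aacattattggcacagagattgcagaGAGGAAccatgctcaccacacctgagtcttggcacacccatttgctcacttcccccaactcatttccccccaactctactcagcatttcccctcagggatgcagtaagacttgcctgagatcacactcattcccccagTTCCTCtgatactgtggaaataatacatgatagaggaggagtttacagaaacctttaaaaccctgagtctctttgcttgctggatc
S100a9 alone of these 4 held AAATC, starting 228 bases upstream, directly beside a TTGCNNAA match at 236. S100a8 (170 and 36 bases upstream) and Stfa2l1 (224 and 86) each held GAGGAA at 2 places and neither of the other motifs. Retnlg held TTGCNNAA 246 bases upstream. Over all 10 genes, 5 held AAATC, 3 TTGCNNAA and 5 GAGGAA, against 33%, 9.55% and 23.1% of 27025 upstream stretches of the same length. These are matches of letters and not sites.

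The cells fell into 32 clusters, of which 22 were named from marker genes into 14 classes, 2 were marked as cycling, and 8 stayed unnamed. No member was a marker or entered the choice of variable genes for clustering. The neutrophil-like class had 10 of 10 neutrophil markers raised and held 1428 of 19342 cells (7.38%, interval 7.02 to 7.76) in the GFI1 WT library and 7 of 10495 (0.0667%, 0.0268 to 0.137) in the GFI1 KO library. The monocyte-like class, with 7 of 7 monocyte markers raised in its larger cluster, held 262 cells (1.35%) in the GFI1 WT library and 4389 (41.8%) in the GFI1 KO library. The larger cluster also had 7 of 10 neutrophil markers raised, and Prtn3, Cd177 and Fcnb, genes of immature granulocytes, were among its 10 leading genes. Nonclassical monocyte-like cells numbered 903 and 539. These classes together, 5299 and 2229 cells, are called the myeloid pool.

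**Figure D1:**
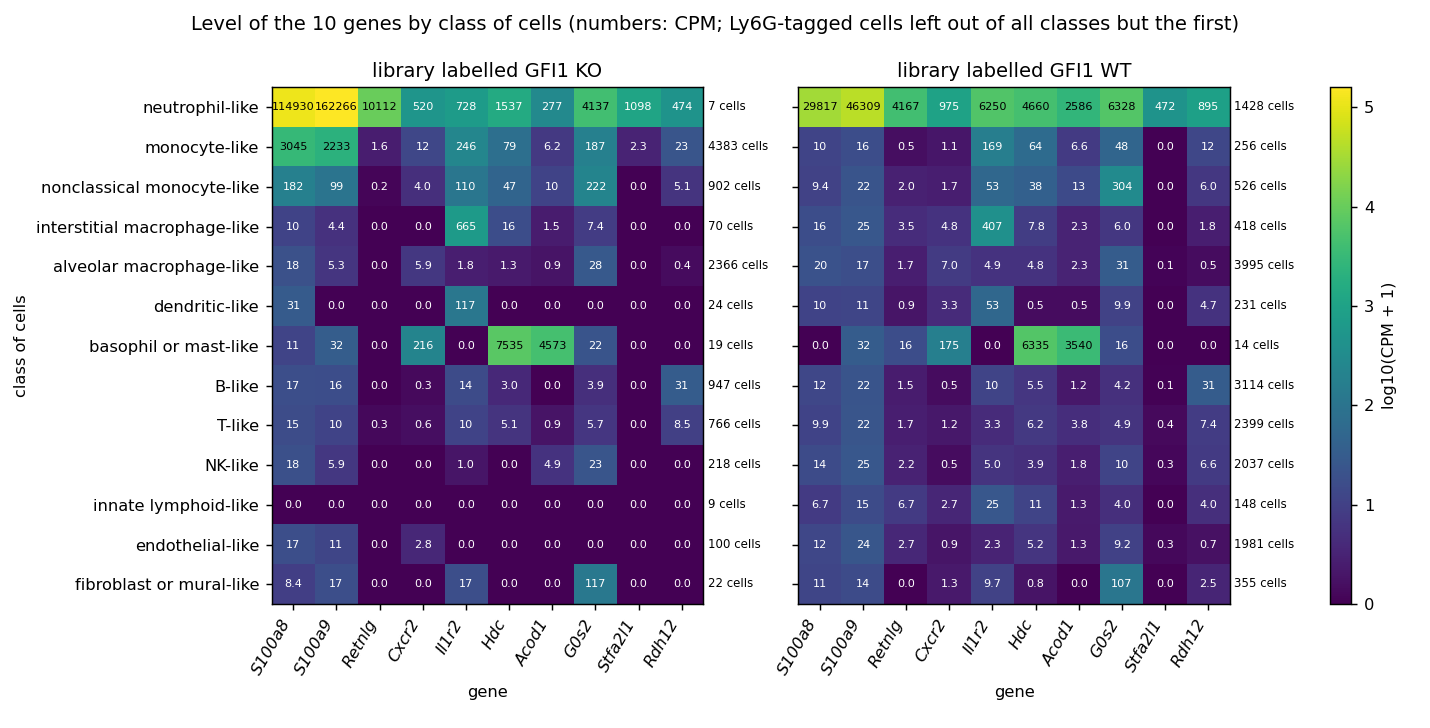
Level of each gene (columns) in each class of cells (rows) under each label, in CPM, with colour as log10(CPM + 1) and the number of cells at the right; cells with at least 30 UMIs of the Ly6G tag are left out of every class but the neutrophil-like. The calprotectin pair is at 3045 and 2233 CPM in monocyte-like cells in the GFI1 KO library and at 10.4 and 15.9 in the GFI1 WT library, while Retnlg and Stfa2l1 are at most at 15.9 CPM outside the neutrophil-like row in both panels.

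Over the pool, all 10 genes were at least 4-fold lower in the GFI1 KO library, beside 3.98% of the 11918 genes with at least 30 UMIs there. The smallest difference was that of S100a8, at 2929 against 13830 CPM (4.72-fold lower). S100a9 was at 2298 against 21482 CPM (9.35-fold lower). With these classes Acod1 had the largest ratio, at 7.25 against 1206 CPM (166-fold lower), followed by Retnlg, at 19.7 against 1934 CPM (98.3-fold lower). This order turned when each library was clustered on its own, with log2 ratios of -5.93 for Acod1 and -12.59 for Retnlg. Stfa2l1 was 50.2-fold, Cxcr2 38.0-fold, Hdc 28.0-fold, Rdh12 19.5-fold, G0s2 15.2-fold and Il1r2 12.8-fold lower. Fewer cells of a type and less RNA per cell both lower such a sum. When the neutrophil-like cells were left out of the pool, 1 of the 10 genes, Retnlg, was still at least 4-fold lower. S100a8, S100a9, Cxcr2, Il1r2 and Rdh12 were then higher in the GFI1 KO library. Hdc (75.8 and 74.5 CPM) and Stfa2l1 (2.44 and 1.82 CPM) were slightly higher there, with intervals that overlapped between the libraries. With Ly6G-tagged cells left out as well, none of the 10 genes was at least 4-fold lower. Retnlg was then at 1.46 CPM in both libraries, from 72 UMIs in 13 of 5285 cells and 7 UMIs in 7 of 782 cells. In a single cell it reached 31 UMIs in the GFI1 KO library and 1 in the GFI1 WT library. For the pools with neutrophil-like or tagged cells left out, no share of all tested genes stands beside the counts.

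The classes that held the UMIs differed between the libraries. Under the GFI1 WT label the neutrophil-like class held between 66.6% (Il1r2) and 81.0% (Stfa2l1) of a gene's UMIs in the library. Unnamed clusters there held 20.4% of the Il1r2 and 16.1% of the Stfa2l1 UMIs. Under the GFI1 KO label the monocyte-like class held 81.0% of the S100a8, 75.8% of the S100a9, 81.6% of the Il1r2, 76.7% of the Rdh12, 71.4% of the G0s2, 70.2% of the Hdc, 61.9% of the Cxcr2 and 55.6% of the Stfa2l1 UMIs. It held 32.5% of those of Acod1, where basophil-like or mast-like cells held 50.4%. It held 9.73% of those of Retnlg, and 7 neutrophil-like cells held 89.7%, along with 44.0% of those of Stfa2l1. Summed over all cells, S100a8 had 164925 UMIs in the GFI1 KO library and 161299 in the GFI1 WT library, whereas Retnlg had 976 and 22120.

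Neutrophil-like cells in the GFI1 WT library had the whole set. S100a9 (46309 CPM) and S100a8 (29817 CPM) were the 2 genes with the most UMIs in the class, and G0s2 (6328 CPM) and Il1r2 (6250 CPM) ranked 9 and 10. Per cell, a median of 70 S100a8 and 109 S100a9 UMIs was counted. A UMI of Il1r2 was found in 98.7% of the 1428 cells, of Cxcr2 in 87.0%, of Retnlg in 80.7%, of Acod1 in 78.7%, of Rdh12 in 62.2% and of Stfa2l1 in 33.2%. In 1412 cells (98.9%) at least 5 of the 10 genes were detected. Stfa2l1 and Retnlg were the most unevenly spread of the 10, the 143 cells with the most UMIs of each holding 63.0% and 50.8% of them, against 25.4% for Hdc. Across these cells the CPM of S100a8 and S100a9 went together (Spearman's rho 0.912, a description over cells of 1 library). Retnlg followed them at 0.584 and 0.603, and for Cxcr2, Il1r2, Hdc and Acod1 the rho with Retnlg lay between -0.134 and 0.0349.

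The 7 neutrophil-like cells in the GFI1 KO library carried between 7661 and 17847 UMIs, above the median of 2940 in the GFI1 WT library. Their S100a8 UMIs ran from 514 to 2280 and their S100a9 UMIs from 737 to 3268, and the pair took 17.1% to 37.8% of a cell's UMIs. Retnlg was present in all 7 at 17, 93, 127, 84, 271, 282 and 1 UMIs. Stfa2l1 was at 0 in 3 cells and at 37, 3, 11 and 44 UMIs in the other 4, and Acod1 was at 0 in 3 cells and at most at 10. Every one of the 7 held UMIs of Cxcr2 (2 to 11), Il1r2 (3 to 18), Hdc (12 to 42), G0s2 (20 to 102) and Rdh12 (4 to 9).

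Summed, the 7 cells were higher than the neutrophil-like cells in the GFI1 WT library in S100a8 (3.85-fold, interval 3.78 to 3.93), S100a9 (3.50-fold), Retnlg (2.43-fold) and Stfa2l1 (2.33-fold), and lower in Acod1 (9.32-fold), Il1r2 (8.58-fold), Hdc (3.03-fold), Rdh12 (1.89-fold), Cxcr2 (1.87-fold) and G0s2 (1.53-fold). The intervals do not include the spread between 7 cells, and clustering the GFI1 KO library on its own named no neutrophil-like cell in it. Ngp, a secondary granule gene, was at 8286 CPM in them together, with 0 to 379 UMIs in a cell. Their Ly6G tag, an antibody against a surface protein of mature mouse neutrophils, gave 5 to 17 UMIs, whereas the 1428 cells in the GFI1 WT library had a median of 243 and 1403 of them had at least 30. The CD11b tag overlapped, with medians of 769 and 965.5 UMIs.

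Among monocyte-like cells, 6 of the 262 in the GFI1 WT library had at least 30 UMIs of the Ly6G tag (151 to 319), and these were also the 6 cells with at least 10 UMIs of S100a8 and S100a9 together. Outside them the class held 19 of its 350 S100a8, 1 of its 64 Retnlg, 12 of its 63 Acod1, 2 of its 17 Cxcr2 and 0 of its 9 Stfa2l1 UMIs. With all cells, Retnlg was 15.5-fold and Acod1 5.33-fold lower in the GFI1 KO library, 2 genes lower at least 4-fold beside 1.17% of 11423 genes, and S100a8 and S100a9 were 16.5-fold and 8.14-fold higher, beside 3.42% of all genes that were at least 4-fold higher. Without cells carrying the tag (6 under each label), none of the 10 genes was at least 4-fold lower, beside 1.12% of 11407 genes, and 4 were counted as at least 4-fold higher, beside 3.65%. These 4 were S100a8, S100a9, Cxcr2 and Stfa2l1, the last only because it had 0 UMIs in the GFI1 WT library. The tag acts on the libraries unequally. The 7 neutrophil-like cells in the GFI1 KO library had at most 17 tag UMIs, so cells like them are not removed there, while in the GFI1 WT library the 6 cells removed were those with the most calprotectin UMIs.

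In the monocyte-like cells without the tag, the pair of calprotectin genes differed most. S100a8 was at 3045 CPM (131368 UMIs) in the GFI1 KO library and 10.4 (19 UMIs) in the GFI1 WT library, a ratio of 292 (interval 187 to 484). S100a9 was at 2233 and 15.9 CPM, a ratio of 140.1 (97.6 to 209). The 2 levels in the GFI1 WT library lay below those of B-like cells in the same library, 12.0 and 21.8 CPM. The size of both ratios depended on the cells taken, and their direction did not in any of the alternatives run. The log2 ratio of S100a8 ran from 2.52 (doublets left out) to 8.15 (tagged cells left out), and that of S100a9 from 0.96 (each library clustered on its own) to 7.11.

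Of the receptors, Cxcr2 had 506 UMIs (11.7 CPM) in the GFI1 KO library and 2 in the GFI1 WT library, a ratio of 10.7 with an interval from 2.94 to 88.3. Its level in the GFI1 KO library was far from the 975 CPM of neutrophil-like cells in the GFI1 WT library. Il1r2 was at 246 and 169 CPM, a ratio of 1.45 (1.30 to 1.63), and so was present in monocyte-like cells under both labels. Neither direction held throughout. With tagged cells kept, the log2 ratio of Cxcr2 was 0.37 and went to -0.54 at resolution 1.2, and that of Il1r2 was 0.03 and went to -1.08 with doublets left out.

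Of the enzymes and the lipase inhibitor, G0s2 was at 187 and 47.8 CPM (ratio 3.91, 3.17 to 4.89), just under 4-fold. Rdh12 was at 22.6 and 11.5 CPM (1.95, 1.27 to 3.17) and Hdc at 78.8 and 63.8 CPM (1.24, 1.03 to 1.503). Acod1 was at 6.19 and 6.60 CPM (0.938, 0.528 to 1.84), low under both labels. The directions of G0s2, Rdh12 and Hdc changed with the cells taken. With tagged cells kept, Hdc was lower in the GFI1 KO library (79.7 and 110 CPM). Also with them kept, leaving out doublets and clustering anew turned the log2 ratio of G0s2 to -0.88 and that of Rdh12 to -0.054. G0s2 was at -0.49 with finer clusters (resolution 1.2). The pool then held 3366 and 3332 cells in the GFI1 KO library, in that order, and 5299 with the main clusters.

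Retnlg had 71 UMIs in 4383 cells (1.65 CPM) against 1 UMI in 256 cells, a ratio of 2.99 whose interval ran from 0.520 to 120. Stfa2l1 had 99 UMIs (2.29 CPM) in 6 of 4383 cells, with up to 44 in a cell, against 0 in 256 cells. Against the limit of 3 counts the ratio is at least 1.39. With so few cells carrying the gene, 256 cells cannot show a difference. With tagged cells kept, Stfa2l1 had 120 against 9 UMIs (2.78 and 4.81 CPM), and over the alternatives its log2 ratio ran from -4.53 to 3.07. Retnlg, with tagged cells kept, was at 2.20 and 34.2 CPM. Once tagged cells were left out, both genes were at a few CPM at most in monocyte-like cells under either label. Neutrophil-like cells of the GFI1 WT library had 4167 and 472 CPM.

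**Figure D2:**
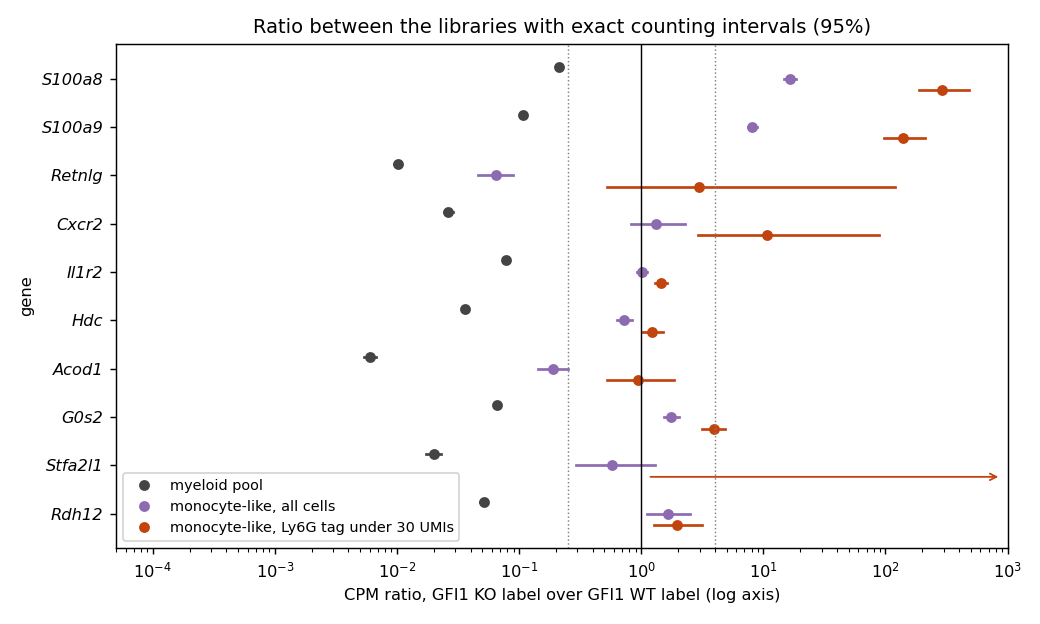
Ratio of each gene's CPM in the GFI1 KO library to that in the GFI1 WT library (log axis), over the myeloid pool (grey), all monocyte-like cells (purple) and monocyte-like cells with under 30 UMIs of the Ly6G tag (orange). Lines are exact counting intervals, the dotted lines mark 4-fold, and the arrow stands for Stfa2l1, which was at 0 UMIs in the GFI1 WT library. All grey points lie left of 0.25 and the orange points of S100a8 and S100a9 at 292 and 140.1.

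The nonclassical monocyte-like class, was compared in the same way. S100a8 was at 182 and 9.38 CPM (ratio 19.4, 13.4 to 29.4) and S100a9 at 99.4 and 21.8 CPM (4.56, 3.53 to 5.99). Il1r2 was 2.10-fold higher (110 and 52.6 CPM), and G0s2, higher in monocyte-like cells, was lower here, at 222 and 304 CPM (0.729, 0.670 to 0.794). Hdc, Acod1 and Rdh12 had intervals that spanned 1. Retnlg had 1 and 6 UMIs (0.166 and 2.01 CPM), and Stfa2l1 had none under either label. Part of the cycling cells also carried the pair in the GFI1 KO library, S100a8 at 3580 and S100a9 at 3261 CPM, with 2 Retnlg UMIs in 269 cells. S100a8 lay in 78 of these cells (29.0%) and S100a9 in 53 (19.7%), with up to 2227 and 2535 UMIs in a cell. Cycling cells without the tag in the GFI1 WT library had S100a9 in 17.0% of 566 cells, at 13.1 CPM. Of the 2 cycling clusters, one was led by Prg2 and genes of dividing cells, with 6 of 7 T cell markers raised. The other was led by Xcr1 and other genes, with 5 of 7 dendritic cell markers raised. How the UMIs of the pair were divided between these clusters is not given.

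The calprotectin UMIs in the GFI1 KO library were spread very unevenly. The monocyte-like class had a median of 1 S100a8 UMI and a highest count of 2003. The 439 cells with the most UMIs of each gene (10% of the class) held 86.5% of the S100a8 and 97.8% of the S100a9 UMIs. Neither gene had a UMI in 1717 of the 4389 cells (39.1%), 1634 cells had 1 to 9 UMIs of the pair, 667 had 10 to 99, and 371 (8.45%) had at least 100. The cuts fall within a continuous range, with 31 cells from 80 to 99 UMIs and 44 from 100 to 119. Under the GFI1 WT label 987 of 1428 neutrophil-like cells had at least 100.

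**Figure D3:**
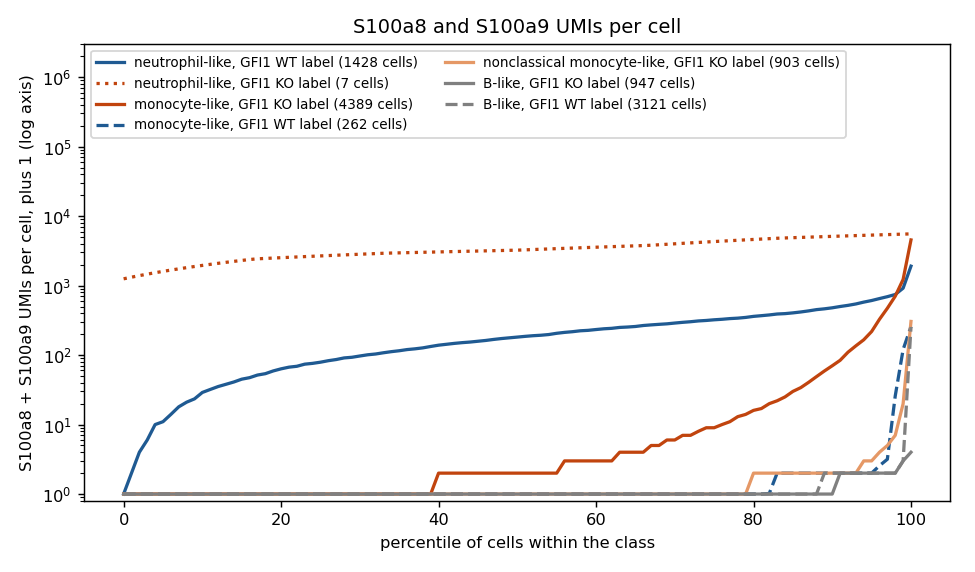
UMIs of S100a8 and S100a9 together per cell, plus 1 (log axis), against the percentile of cells in the class. The line of monocyte-like cells in the GFI1 KO library stays low and reaches 100 UMIs in 371 of 4389 cells, whereas 987 of 1428 neutrophil-like cells in the GFI1 WT library reach it.

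Other members followed this range to different degrees. From cells without a UMI of the pair to cells with at least 100, Cxcr2 went from 1.13 to 74.6 CPM, Rdh12 from 8.10 to 66.9, G0s2 from 108 to 485, Hdc from 61.1 to 145 and Il1r2 from 201 to 383. Acod1 was at 6.77 and 14.0 CPM, and at 4.02 and 5.50 in the groups between. All 120 UMIs of Stfa2l1 lay in 9 of the 371 cells with the most calprotectin UMIs, 103 of them in 3 cells. Of the 95 Retnlg UMIs, 87 lay in 6 of the 371 cells, and 3 cells held 81. Even among these 371 cells, 98.4% had no Retnlg UMI, while S100a8 was at 23568 CPM. Of neutrophil-like cells in the GFI1 WT library, the 987 with at least 100 UMIs of the pair had S100a8 at 36860 CPM. A Retnlg UMI was found in 91.1% of those 987 cells. Median depth of the monocyte-like cells rose along the same range, from 10923 to 14845 UMIs per cell, beside 3152 in the 987 cells.

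Granule genes differed along the range to different degrees. Lcn2, of the secondary granules, went from 130 to 2406 CPM, Elane, of the primary granules, from 4.38 to 53.8, Prtn3 from 170 to 345, and Mmp8 from 209 to 686, while Ctsg was at 3.45 and 4.04 and Cd177 at 90.5 and 110. Ngp, Ltf and Camp, defining genes of secondary granules, were at 0.133, 0.664 and 0 CPM at the low end. They were at 15.9, 2.12 and 1.06 CPM in the cells with at least 100 UMIs of the pair. The 7 neutrophil-like cells of that library, summed, had 8286, 1676 and 2878 CPM. These sums were uneven, with 0 to 379, 0 to 121 and 0 to 152 UMIs in a cell and medians of 69, 2 and 2. At the high end Mmp9, of the tertiary granules, was at 13.8 CPM, against 974.8 in neutrophil-like cells in the GFI1 WT library. Csf1r, the receptor of monocytes and macrophages, was at 652 CPM at the low end and 318 at the high end, and Ccr2 at 1036 and 772. Other monocyte genes were higher at the high end, with Ly6c2 at 686 and 1088, F13a1 at 705 and 1029 and Vcan at 579 and 847. The Ly6G tag had a median of 1 UMI in the 371 cells.

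**Figure D4:**
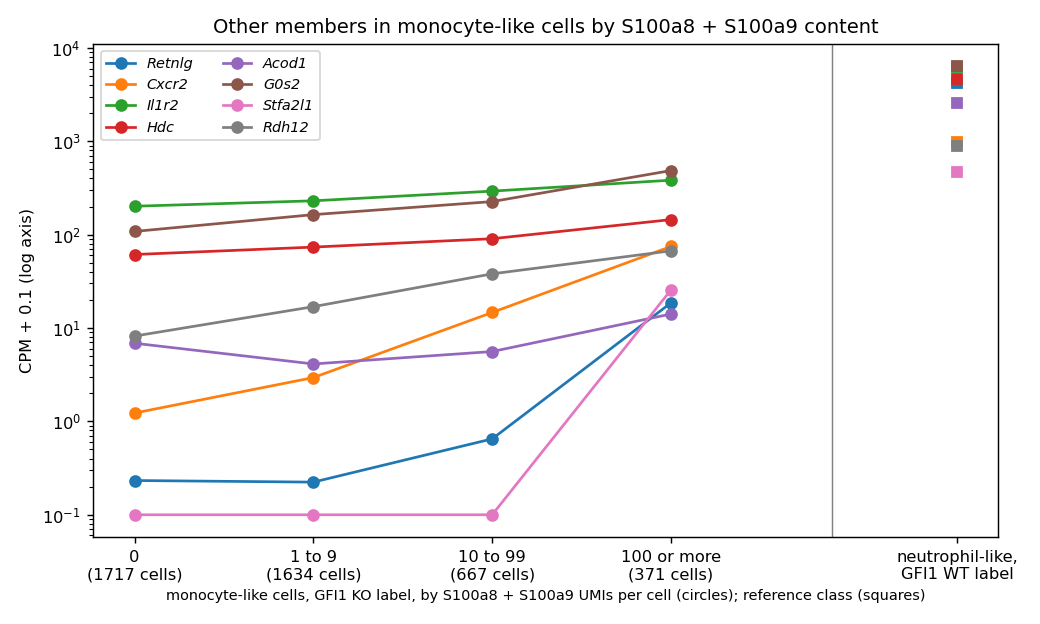
CPM plus 0.1 (log axis) of the other 8 genes in monocyte-like cells in the GFI1 KO library, grouped by S100a8 and S100a9 UMIs per cell (circles), beside their level in neutrophil-like cells in the GFI1 WT library (squares). Cxcr2 runs from 1.13 to 74.6 CPM and Il1r2 from 201 to 383, and every circle lies below the square of its gene.

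The balance of the pair differed between classes of cells. Neutrophil-like cells in the GFI1 WT library had 1.55 S100a9 UMIs per S100a8 UMI (interval 1.54 to 1.56), and the 7 in the GFI1 KO library had 1.41 (1.38 to 1.45). Monocyte-like cells without the Ly6G tag in the GFI1 KO library had 0.733 (0.727 to 0.740). Over all 4389 cells of the class, tagged ones included, the value was 0.135 in cells with 1 to 9 UMIs of the pair, 0.175 with 10 to 99 and 0.856 with at least 100. Nonclassical monocyte-like cells in the GFI1 KO library had 0.545 and cycling cells 0.911.

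**Figure D5:**
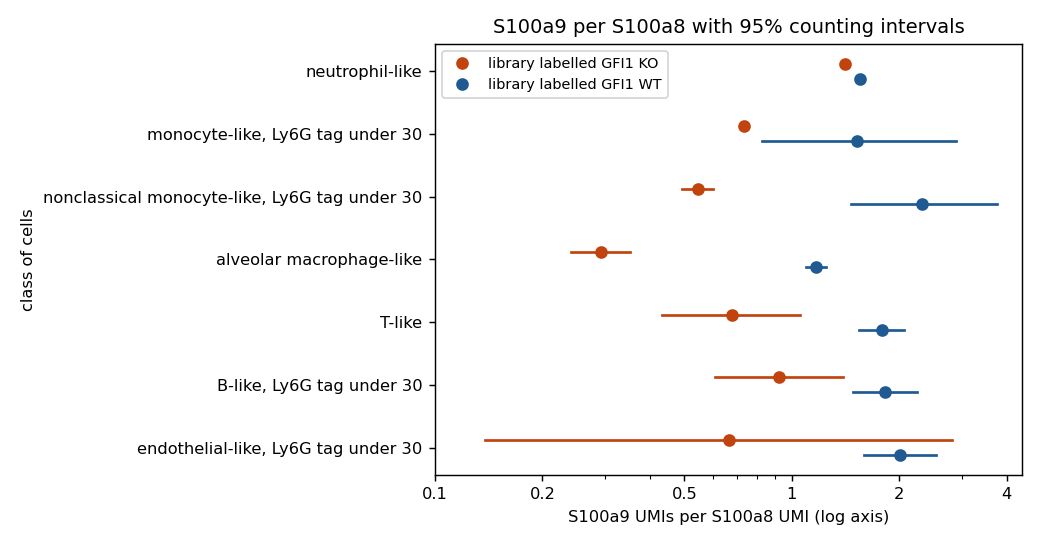
S100a9 UMIs per S100a8 UMI (log axis) by class of cells and label, with counting intervals. Cells with the Ly6G tag are kept in the neutrophil-like, alveolar macrophage-like and T-like rows and left out of the others. Alveolar macrophage-like cells in the GFI1 WT library had 1949 S100a9 UMIs with tagged cells and 822 without, so that row can depend on them. As drawn, every class but the neutrophil-like lies below 1 in the GFI1 KO library, and every class lies above 1 in the GFI1 WT library. The intervals of B-like, T-like and endothelial-like cells in the GFI1 KO library and of monocyte-like cells in the GFI1 WT library include 1.

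B-like and endothelial-like cells, which should not make the calprotectin genes, give the level of free RNA, RNA set free in the suspension that enters every droplet. In B-like cells without the Ly6G tag, S100a8 was at 17.1 CPM (52 UMIs) in the GFI1 KO library and 12.0 (145 UMIs) in the GFI1 WT library, a ratio of 1.43 (1.02 to 1.97). S100a9 was at 15.8 and 21.8 CPM. Endothelial-like cells gave 17.1 and 12.0 CPM for S100a8 and 11.4 and 24.0 for S100a9, from 6 and 4 UMIs in 100 cells in the GFI1 KO library. The free S100a9 per S100a8 was 0.923 (0.610 to 1.39) in B-like cells in the GFI1 KO library and 1.82 (1.48 to 2.25) in the GFI1 WT library. With the tagged B-like cells kept, S100a8 in the GFI1 WT library was at 24.7 CPM and the ratio turned to 0.692.

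Free Retnlg and Acod1 were seen in the GFI1 WT library, 18 and 14 UMIs in 3114 B-like cells (1.49 and 1.16 CPM), and not in the GFI1 KO library, where 0 UMIs in 947 cells allow up to 0.985 CPM each. The intervals in the GFI1 WT library, 0.882 to 2.35 CPM for Retnlg and 0.633 to 1.94 CPM for Acod1, both span that limit. A difference was therefore not resolved for either gene. Other lymphocytes of the GFI1 KO library did hold Acod1, with 5 UMIs in NK-like cells (4.89 CPM, beside 1.78) and 3 in T-like cells (0.853 CPM, beside 3.78). At this depth a difference was not detectable for Stfa2l1 (0 UMIs in the GFI1 KO library and 1 in the GFI1 WT library). Free Retnlg per 100 S100a8 UMIs was 12.4 in B-like cells in the GFI1 WT library, beside 14.0 in the neutrophil-like cells of that library. Hdc was at 2.96 and 5.54 CPM and G0s2 at 3.94 and 4.22 CPM.

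Rdh12 and Il1r2 were not in the ratio to S100a8 that the neutrophil-like cells had. In B-like cells Rdh12 was at 30.9 CPM in the GFI1 KO library and 31.4 in the GFI1 WT library, above the 22.6 CPM of monocyte-like cells in the GFI1 KO library, and at 0 UMIs and 0.735 CPM in endothelial-like cells. Il1r2 was at 14.5 and 10.5 CPM in B-like and 2.31 CPM (0 UMIs in the GFI1 KO library, which allows 8.53) in endothelial-like cells. The Il1r2 UMIs per 100 S100a8 UMIs were 87.6 in B-like cells in the GFI1 WT library and 21.0 in the neutrophil-like cells.

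Outside the pool several members had high levels in other classes under both labels. Hdc and Acod1 were highest of all classes in basophil-like or mast-like cells, at 7535 and 4573 CPM in 19 cells in the GFI1 KO library and 6335 and 3540 in 14 in the GFI1 WT library, and Cxcr2 was at 216 and 175 CPM there. In these cells S100a8 had 1 and 0 UMIs. Il1r2 was at 665 and 407 CPM in interstitial macrophage-like cells, above monocyte-like cells under either label. G0s2 was at 117 and 107 CPM in fibroblast-like or mural-like cells and 27.6 and 31.4 CPM in alveolar macrophage-like cells. Retnlg and Stfa2l1 had their highest level outside the neutrophil-like class at 15.9 CPM (1 UMI) and 2.29 CPM once tagged cells were left out.

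The shares of cells with a UMI were compared after each cell was thinned to 1500 UMIs. In monocyte-like cells in the GFI1 KO library, 34.1% of 4381 cells then had a UMI of S100a8 (56.8% before), 15.5% of S100a9, 25.3% of Il1r2, 12.8% of G0s2, 10.3% of Hdc, 2.31% of Rdh12, 1.69% of Cxcr2 and 0.571% of Acod1. Retnlg was left in 5 of these cells and Stfa2l1 in 3. In B-like cells of the same library S100a8 was left in 2.74% of 912 cells and S100a9 in 1.97%. Rdh12 in B-like cells was at 3.62%, above its share in monocyte-like cells.

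Other genes of the same programme, from a list that leaves the members out, were counted beside them. All 10 markers that named the neutrophil-like class are on this list, Mmp9 among them. Of these 10, 5 were at least 4-fold lower in the pool in the GFI1 KO library, so the count is not independent of the naming. Of 38 tested genes of the mature neutrophil programme, 14 were at least 4-fold lower and none at least 4-fold higher, beside 3.98% and 2.21% of all tested genes, with a median log2 ratio of -1.39, where the median over all tested genes was 0.34. Asprv1, a skin and neutrophil protease (0.284 and 135 CPM), Cxcr1, a chemokine receptor (0.0203 and 10.2 CPM) and Mmp9, a gelatinase (3.51 and 452 CPM), had the lowest ratios. Il1b, the cytokine that Il1r2 binds, was at 3367 and 9347 CPM and Cxcl2, a ligand of Cxcr2, at 1270 and 2905. In monocyte-like cells without the Ly6G tag none of 35 tested genes of this list was at least 4-fold lower and 10 were at least 4-fold higher, beside 1.12% and 3.65% of all tested genes.

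Among primary granule genes in the pool, 6 of 7 were at least 4-fold higher and none lower. The shares of all tested genes, 2.21% and 3.98%, also stand behind the counts of the lists that follow. Prtn3 was at 192 and 6.19 CPM. Elane was at 13.4 CPM against 0 UMIs, so its UMIs in the GFI1 KO library alone let it be tested. Mpo, Ctsg and Ms4a3 also passed the minimum of UMIs through the GFI1 KO library alone. They were at 1.74, 3.84 and 0.810 CPM in its monocyte-like cells and at 0 in neutrophil-like cells of the GFI1 WT library. For genes tested in this way the minimum favours a call of higher, so the count of 6 partly reflects that minimum. Markers of immature granulocytes, which also served to name clusters, include genes of this list and the next. Of the 10 such markers, 4 were at least 4-fold higher in the pool, so the counts of both lists are not independent of the naming. Of 12 tested genes of secondary and tertiary granules, 2 were at least 4-fold higher and none lower. Chil3 was at 3821 and 451 CPM, Hp at 1604 and 734 and Anxa1 at 644 and 275, and Ltf was at 3.81 and 9.66 and Camp at 5.21 and 10.9. In the GFI1 KO library these pool values came with 1676 and 2878 CPM in the 7 neutrophil-like cells, summed over uneven cells, and 0.949 and 0.162 CPM in the monocyte-like cells. Of the family neighbours of the members 4 of 16 were at least 4-fold lower and none higher. S100a4 and S100a6, which lie in the same gene cluster as the calprotectin pair, were at 2864 and 1227 CPM and at 3400 and 2757 CPM. Of the ligands and partners 2 of 14 were at least 4-fold lower, with Il1rn, the interleukin-1 receptor antagonist, at 24.98 and 262 CPM.

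Each member was compared with genes outside the set by Pearson correlation of log2(CPM + 1) over 20 profiles. A profile was a class in a library with at least 50 cells. Of the genes outside the set, those most like Stfa2l1 were Scrg1 (0.952), Il36g (0.938) and Antxr2 (0.915). Those most like Retnlg were Scrg1 (0.892), Antxr2 (0.881) and Asprv1 (0.867). Outside the set, Il1r2 was most like Cass4 (0.952) and Hdc most like Arg2 (0.956). There S100a8 was most like B230208H11Rik (0.886) and Rdh12 most like Braf (0.807). Pairs of members could lie higher, as with Retnlg and Stfa2l1 (0.937), Retnlg and Acod1 (0.935), and S100a8 and S100a9 (0.971). For Stfa2l1, Il1r2, Hdc and Rdh12 no member lay above the first gene named. The profiles share 2 libraries and their depth, and no gene was compared by function.

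Reads of near-identical genes could blur 1 member. In GENCODE vM21 transcripts, 7 of 329 stretches of 91 bases in the last 500 bases of Stfa2l1 were shared with Stfa2 (2.13%), and none of the stretches of the other 9 genes was shared with another gene.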

How the data were processed

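Single-cell RNA libraries of lung, 1 labelled GFI1 KO and 1 labelled GFI1 WT, were analysed. The deposited values were whole UMI counts per gene and cell, which the authors made with Cell Ranger 9.0.1 on GRCm39, per the labels' processing notes. Cells with at least 500 UMIs, at least 200 genes and at most 20% mitochondrial UMIs were kept, and ribosomal, mitochondrial and Gm- genes (9548) were left out of all levels, following the study's filters. Both libraries were clustered together in scanpy 1.11.5 (2000 variable genes without the 10 members, 50 components, 15 neighbours, Leiden resolution 0.8). A cluster was named where at least 3 markers were raised 1.5-fold in at least 5% of its cells. The limits that left a cluster unnamed all the same were 50% of the markers of another lineage raised and 25% doublets. Raised markers of a related class did not do so, as with the neutrophil markers in the larger monocyte-like cluster. These naming limits and the 30-UMI limit of the Ly6G tag were set after the data were seen. Doublets called by Scrublet (346 and 1137 cells) were kept, and left out as an alternative in which the remaining cells were clustered anew.

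UMIs were summed by class and library. Levels are CPM, intervals are exact Poisson, Clopper-Pearson or conditional binomial at 95%, and a count of 0 allows up to 3 counts. With 1 library per genotype no p-value was computed. Genes with at least 30 UMIs over both libraries were compared, and 4-fold was the limit of a call. The ratio step was checked on simulated counts. The members and lists were chosen with earlier results of these data known. Of each list, the 3 genes with the highest level and the 3 with the lowest ratio in the pool could be named. The granule and monocyte genes given by calprotectin UMIs were picked after their values were seen.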

Additional observations from a re-analysis of the deposited data

How the results depend on the processing

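All 10 genes were at least 4-fold lower in the pool in the GFI1 KO library under each of the alternatives set at the start but 1, the pool built without clusters, which gave 9 (S100a8 fell by 1.44 on the log2 scale there). With neutrophil-like cells left out, chosen after seeing the data, 1 gene was, and the log2 ratio (GFI1 KO over GFI1 WT) turned to 4.62 for S100a8, 3.51 for S100a9, 0.89 for Cxcr2, 0.65 for Il1r2, 0.025 for Hdc, 0.35 for Stfa2l1 and 1.17 for Rdh12. With Ly6G-tagged cells left out too, 0 genes were, and the same 7 log2 ratios were 8.09, 6.65, 2.79, 1.24, 0.64, 4.28 (over 0 UMIs) and 1.31. Clustering each library on its own took Retnlg to -12.59 and Stfa2l1 to -12.28 in the pool, and taking off the B-like level took Rdh12 to -15.22. In the GFI1 KO library the B-like level of Rdh12 (30.9 CPM) was above its pool level (21.4 CPM), so nothing was left. The value of -15.22 and the call of Rdh12 under that alternative are therefore set by the subtraction and the 0.5 UMIs added. The neutrophil-like share of cells (GFI1 KO minus GFI1 WT, -7.32 percentage points) was -7.75 without doublets. The share of all genes at least 4-fold lower (3.98%) was 11.55% with no minimum of UMIs. That share belongs to the main pool, and none is given beside the counts of the alternative pools. Clustering each library on its own left 1478 pool cells and no neutrophil-like cell in the GFI1 KO library. The pool there held 3366 cells with doublets left out and 3332 at resolution 1.2, beside 5299 with the main clusters.

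In B-like cells S100a8 and Il1r2 turned to 0.31 and 0.38 at resolution 0.5, 0.32 and 0.42 without doublets, 0.43 and 0.34 with members among the variable genes, and 0.52 and 0.47 without Ly6G-tagged cells. In monocyte-like cells the log2 ratio ran from 2.52 to 8.15 for S100a8, 0.96 to 7.11 for S100a9, -0.54 to 3.095 for Cxcr2, -1.08 to 0.54 for Il1r2 and -4.53 to 3.07 for Stfa2l1. There G0s2 turned to -0.49 at resolution 1.2 and -0.88 without doublets, Rdh12 to -0.054 without doublets, and Hdc to 0.078 with each library on its own. Without Ly6G-tagged cells, also chosen after seeing the data, Hdc turned to 0.30 and Retnlg to 1.01 there, and S100a8 to 0.62 in endothelial-like cells. The Retnlg value comes from 71 and 1 UMIs with 0.5 added to each, so it is smaller than the plain ratio given above. Of 400 single-gene values, 238 stayed within their interval, 133 moved further and 29 turned from a direction whose interval left out 0. The cause was not tested. No paired analysis was possible because each genotype has 1 library. Levels near 1 UMI per class could not be told from 0 at this depth.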
